A study of Mus musculus with 22 samples.

Results

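Glutamate transporter genes of the Slc1 family and Ranbp3l, the protein-coding gene that follows Slc1a3 on chromosome 15, were followed across 22 RNA sequencing libraries of microglia sorted from mouse retina. The 6 members, Slc1a1, Slc1a2, Slc1a3, Slc1a4, Slc1a5 and Ranbp3l, were taken by gene symbol from a table of 28984 genes. Slc1a3 and Ranbp3l were chosen on their difference between genotypes in these libraries, so that difference is given as a description with no test. The other 4 members were chosen by family name. Of the 6 members, 5 passed the filter on low values (a normalised count of at least 30 in at least 5 libraries), as did 12868 genes in all, and Slc1a1 did not.

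The study measured transcripts in microglia, the resident macrophages of the retina, in a mouse model of retinal angiomatous proliferation, an overgrowth of abnormal retinal vessels. Libraries were labelled control (n = 7) or Vldlr knockout (KO, n = 5) at postnatal day 17 (P17), and control (n = 5) or Vldlr KO (n = 5) at postnatal day 31 (P31). Vldlr is the gene of a lipoprotein receptor, that for very low density lipoprotein, and the labels spell the knockout genotype in 2 ways, vldlrKO and vldrlKO. All groups were sorted as CD45 low, CD11b+, Ly6C-, Ly6G- and Tom+ cells. The sources used here do not give what Tom marks, whether controls and KO both carry a reporter allele or Cre, the strain, the sex, or whether a library came from 1 animal or a pool. P-values therefore measure the spread between libraries.

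Libraries held 23.9 to 54.0 M reads, and 1 read was worth 0.578 to 1.29 normalised counts. All 18 microglial markers passed the filter, none was called between genotypes at either age, and their summed level lay between 2687600 and 3654600 in every library. Vldlr had 49 to 790 reads in the P17 controls and 0 to 17 in the P17 KO libraries. At P31, 4 of 5 controls had 0 Vldlr reads and the KO libraries had 0 to 65, so the P31 labels could not be checked by Vldlr. P17 KO library 1 stood apart in scaling, because its deposited size factor was 1.92 times the one given by TMM (edgeR's trimmed mean scaling), against 0.946 to 1.02 times in the other 21. Its values are lower on the deposited scale than with TMM. The P17 KO means of Slc1a2, Slc1a3 and Ranbp3l are given with and without it. Other P17 KO levels and differences include it unless stated, and correlations always do. Xist without Y-linked transcripts was found in 3 of 5 P17 KO and all 5 P31 KO libraries, and in 0 of 7 P17 and 3 of 5 P31 control libraries. Both together were found in 2 of 7 P17 control and 2 of 5 P17 KO libraries. The remaining libraries had Y-linked transcripts with little or no Xist. Sex composition therefore moved with genotype, and its part in the P17 results was not tested.

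Slc1 transporters carry amino acids across the plasma membrane. Slc1a3 (GLAST, or EAAT1), Slc1a2 (GLT-1, or EAAT2) and Slc1a1 (EAAC1, or EAAT3) clear glutamate from the extracellular space by coupling its uptake to the sodium gradient, whereas Slc1a4 (ASCT1) and Slc1a5 (ASCT2) exchange small neutral amino acids such as serine and glutamine. In the retina Slc1a3 is best known as the transporter of Mueller glia, Slc1a2 is known from photoreceptors and bipolar cells, and Slc1a1 from inner retinal neurons. Ranbp3l is related to Ranbp3, a cofactor of nuclear export, and is known as a factor that exports Smad proteins of the bone morphogenetic protein (BMP) pathway from the nucleus.

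Slc1a3 (ENSMUSG00000005360) lies at chr15:8634124-8710764 on the minus strand of mm10, and Ranbp3l (ENSMUSG00000048424) at chr15:8967949-9067335 on the plus strand. The pair is transcribed away from a shared interval of 257 kb. Slc1a1 is on chromosome 19 (28835049 to 28913960), with its start 1.62 Mb from that of Vldlr. Slc1a2 is on chromosome 2 (102658659 to 102790784), Slc1a4 on chromosome 11 (20302180 to 20332713) and Slc1a5 on chromosome 7 (16781340 to 16798274).

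The 250 bases before the RefSeq start of Slc1a3 and Ranbp3l are shown because the 2 genes were high in the same libraries. Both are from GRCm38.p6, written 5′ to 3′ on the gene's own strand, at chr15:8710808-8711057 (minus) and chr15:8967699-8967948 (plus), and capitals mark matches to the motifs named after them.
Slc1a3: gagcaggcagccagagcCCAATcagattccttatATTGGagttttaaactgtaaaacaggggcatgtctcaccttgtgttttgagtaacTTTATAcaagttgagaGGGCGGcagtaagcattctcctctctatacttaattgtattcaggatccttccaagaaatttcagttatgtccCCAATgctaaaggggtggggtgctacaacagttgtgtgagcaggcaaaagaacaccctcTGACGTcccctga
Ranbp3l: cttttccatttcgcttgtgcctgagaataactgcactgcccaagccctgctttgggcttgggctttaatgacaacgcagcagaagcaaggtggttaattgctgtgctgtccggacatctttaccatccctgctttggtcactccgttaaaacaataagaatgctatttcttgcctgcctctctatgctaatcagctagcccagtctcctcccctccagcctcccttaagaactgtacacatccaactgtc
Searched on both strands were the GC box GGGCGG, the TATA box in the form TATAAA, the CCAAT box, the cAMP response element TGACGTCA and its shorter form TGACGT, which overlaps it, the AP-1 motif TGANTCA and the PU.1 core GAGGAAGT. The Slc1a3 window held 1 GC box, 1 TATA box, 3 CCAAT boxes and 1 TGACGT, which occur in 32.7%, 12.4%, 33.9% and 6.47% of 32851 RefSeq promoter windows of that length. The Ranbp3l window held none of the 7. The AP-1 motif (6.75% of windows), the PU.1 core (2.44%) and the full cAMP response element (1.55%) were in neither. Of the 6 members 5 matched a promoter entry. These are letter matches in a fixed window and say nothing of binding.

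Slc1a3 was a moderately abundant transcript in control microglia and among the most abundant in the KO. At P17 the 7 controls had normalised counts of 1773, 2257, 3068, 3186, 1345, 1689 and 1707, and the 5 KO libraries had 14399, 56109, 57421, 97037 and 61488. Every KO library was above every control, and the lowest, P17 KO library 1, was still 4.52 times the highest control. Means were 2147 ± 722 (SD, n = 7) and 57291 ± 29319 (SD, n = 5), a ratio of 26.7. Without P17 KO library 1 the KO mean was 68014 ± 19484 (SD, n = 4) and the ratio 31.7, and with TMM scaling that library rose to 27662.

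At P31 the controls had 1970, 2346, 2821, 3158 and 2322, and the KO libraries 75502, 66948, 68239, 62306 and 49515. The groups were again separate, with the lowest KO library 15.7 times the highest control. Means were 2523 ± 466 (SD, n = 5) and 64502 ± 9623 (SD, n = 5), a ratio of 25.6. On the log2(normalised count + 10) scale the fitted differences were 4.57 ± 0.33 (SE) at P17 and 4.68 ± 0.35 at P31. When P31 was limited to the 3 control and 5 KO libraries that had Xist but no Y-linked transcripts, the difference was 4.53. With a rod photoreceptor score as a covariate the 2 differences were 4.80 and 4.46, and with a Mueller glia and astrocyte score 4.998 and 4.70.

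In the control libraries Slc1a3 took 0.00403% to 0.00992% of all reads and ranked between 1719 and 3960 among genes ordered by reads. In 9 of the 10 KO libraries it took 0.166% to 0.278% and ranked between 35 and 64. P17 KO library 1 was the exception, at 0.0490% and rank 214.

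Ranbp3l was read in every KO library and in no control. All 12 controls had 0 reads, for which the limit is 3 reads per library. At P17 the KO libraries had normalised counts of 18.4, 187, 205, 412 and 173, from 15 to 318 reads, and at P31 they had 499.8, 249.6, 200.2, 138 and 560.2, from 153 to 675 reads. Group means were 199 ± 140.2 (SD, n = 5) at P17 and 329.6 ± 188 (SD, n = 5) at P31. Against the value of 3 reads in a control library these means were at least 58.3-fold and at least 137-fold higher, which covers counting error only. P17 KO library 1 was the lowest of the 10, and without it the P17 mean was 244 ± 112 (SD, n = 4).

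Ranbp3l passed the filter on low values through its KO libraries alone. As background to the comparisons that follow, 195 of 12868 genes were called between genotypes at P17 (1.52%) and 371 at P31 (2.88%), with a call meaning an adjusted p under 0.05. Every KO library was above every control for 1.37% of all genes tested at P17 and 3.04% at P31. Slc1a3 and Ranbp3l are among these genes because the genotype difference chose them, and nothing is read from that.

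**Figure D1:**
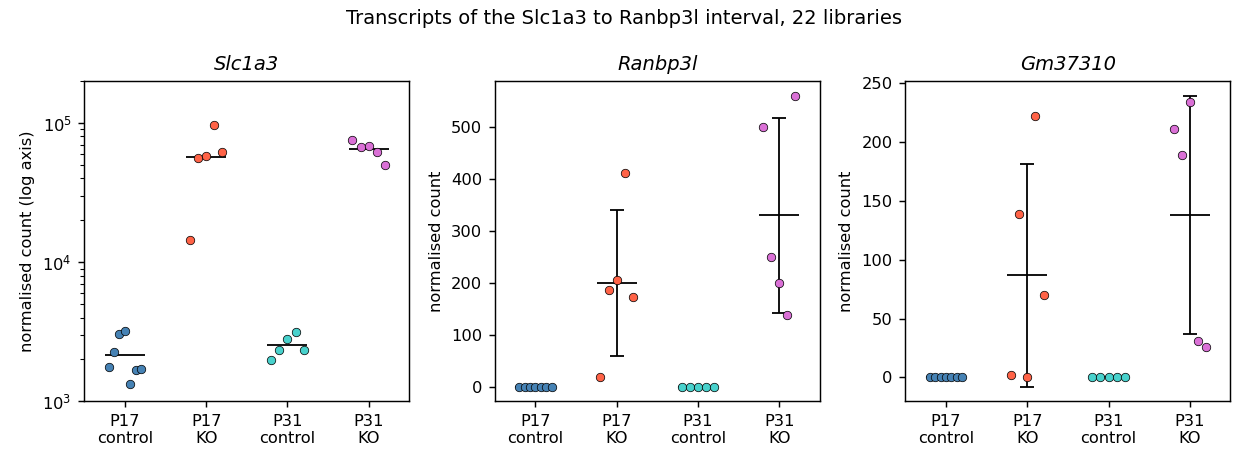
Normalised counts of Slc1a3 (log axis), Ranbp3l and Gm37310, a transcript within Slc1a3, in each library (points) of the 4 groups on the horizontal axis, with group means as horizontal lines and, on the linear axes, SD as bars (a bar may run below 0). The Slc1a3 controls sit between 1345 and 3186 and the KO libraries between 14399 and 97037, and all 12 controls are at 0 for Ranbp3l and Gm37310.

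Relative to Slc1a3, Ranbp3l reads were few. Per 1000 Slc1a3 reads the P17 KO libraries had 1.28, 3.34, 3.57, 4.24 and 2.82 Ranbp3l reads, and the P31 KO libraries 6.62, 3.73, 2.93, 2.22 and 11.3. The P31 KO library with the fewest Slc1a3 counts, library 5, had the most Ranbp3l counts. Over the 22 libraries the 2 genes correlated at r = 0.97 (Pearson, log2 scale), and at r = 0.70 after removing the 4 group means. These correlations are descriptions, and the points share their library scaling. P17 KO library 1, the lowest of the P17 KO for both genes, was kept in, and r without it was not computed.

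Age had no detected effect on either gene within a genotype. In controls 188 of 12868 genes were called between P31 and P17 (1.46%) and in the KO 114 were (0.886%), and no tested member was among them. The Slc1a3 difference, P31 minus P17, was 0.28 among control libraries (95% interval -0.39 to 0.95, limma adjusted p = 0.785) and 0.39 among KO libraries (-0.34 to 1.12, limma adjusted p = 0.654). In the KO it was -0.052 without P17 KO library 1. The group means ordered as P17 control, P31 control, P17 KO and P31 KO. The order of the 2 KO groups rests on that library, without which the P17 KO mean of 68014 was above the P31 KO mean of 64502, and the libraries of the 2 ages overlapped within each genotype. Ranbp3l was 0.93 higher at P31 than at P17 in the KO (95% interval -0.23 to 2.10, limma adjusted p = 0.468), with overlapping libraries. Without P17 KO library 1 that difference was 0.32. These age contrasts use the libraries that chose the 2 genes.

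A transcript within Slc1a3, Gm37310 (ENSMUSG00000103047, chr15:8652106-8655073), followed the same pattern. It is annotated by GENCODE as TEC, a class for transcripts still awaiting experiments, lies on the strand of Slc1a3, and shares 0 exonic bases with it. All 12 controls had 0 reads. The P17 KO libraries had normalised counts of 2.46, 139, 0, 221 and 70.3, and the P31 KO libraries 210.3, 189, 233, 30.7 and 25.7. The groups were separate at P31, where the mean was at least 57.1-fold above the value of 3 reads, and overlapped at P17, where 1 of 5 KO libraries was at 0. Gm37310 passed the filter on low values through its KO libraries alone, so its log2 differences of 2.35 ± 0.69 (SE) at P17 and 3.45 ± 0.74 at P31 are given as a description with no test. Gm37310 reads per 1000 Slc1a3 reads were 0 to 2.48 at P17 and 0.493 to 3.42 at P31, and Gm37310 and unspliced Slc1a3 RNA cannot be told apart in these counts.

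The other genes around the pair showed few differences. Within 1 Mb of either start the table holds 18 more genes, 9 of which were tested. The median log2 difference of the 9 was -0.28 at P17, against -0.30 over all genes tested, and 0.45 at P31, against -0.05. The 9 include Gm37310, which passed the filter through its KO libraries alone, so no shift of the neighbourhood is read from these medians. At P31 the other 8 ran from -1.38 (Nup155) to 1.52 (Il7r), and none of them was called at either age. Nipbl, the cohesin loader on the far side of Slc1a3, was 0.39 higher at P17 (limma adjusted p = 0.534) and differed by -0.29 at P31 (limma adjusted p = 0.775). Nadk2, a mitochondrial NAD kinase and the nearest tested gene past Ranbp3l, had means of 206 ± 140.3 in controls and 431 ± 117 in the KO at P31 (n = 5 each, log2 difference 1.26, limma adjusted p = 0.327). Its log2 difference was -0.75 at P17 (limma adjusted p = 0.477). Between Nadk2 and the window's edge, Skp2 (a ubiquitin ligase subunit) and Lmbrd2 had log2 differences of 0.85 and -1.02 at P31, with limma adjusted p of 0.547 and 0.569.

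Il7r, the receptor for interleukin 7, lies 819 kb from the start of Slc1a3 and came closest to the threshold at P31. Its P31 mean was 975 ± 593 (SD, n = 5) in control libraries and 2371 ± 587 (SD, n = 5) in KO libraries, a log2 difference of 1.52 ± 0.44 (SE, limma adjusted p = 0.0689). The libraries overlapped, with controls from 222 to 1829 and KO from 1609 to 2912. It was called in 5 of 35 alternatives, among them TMM rescaling and leaving out P31 control 1 or P17 KO library 1. At P17 its log2 difference was 0.01 (limma adjusted p = 0.991). On the other side of Slc1a3, Wdr70, Nup155 (a nuclear pore protein) and Cplane1 (a cilium assembly protein) had P31 log2 differences of 0.45, -1.38 and -1.20, with limma adjusted p of 0.566 to 0.645.

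Over chromosome 15 as a whole, 15 of 494 genes tested were called at P17 (3.04%, against 1.52% of all genes) and 14 at P31 (2.83%, against 2.88%). These counts include the pair and, at P31, Gm37310. Beyond the 1 Mb window the nearest called gene was 22.4 Mb away at P17 (Ankrd33b) and 30.2 Mb away at P31 (Rims2).

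**Figure D2:**
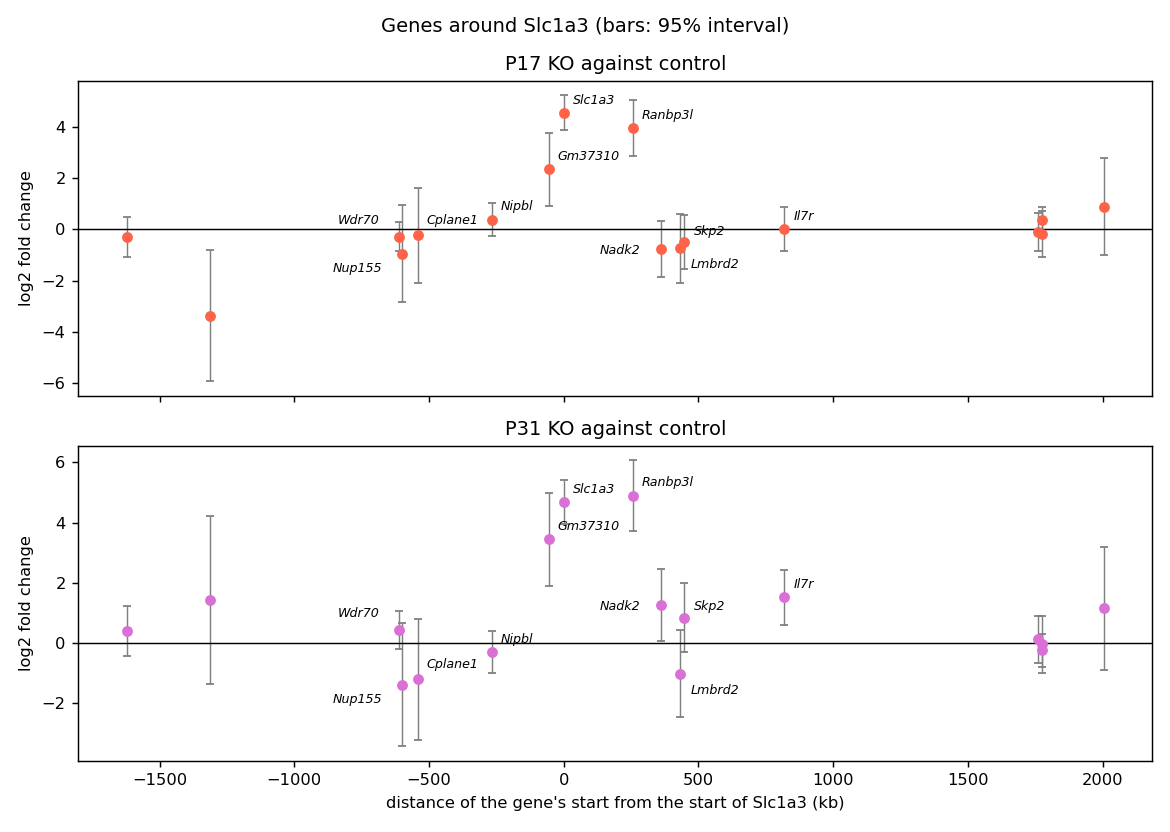
Log2 difference between KO and control (vertical axis) against the distance of each tested gene's start from that of Slc1a3 in kb (horizontal axis), at P17 (top) and P31 (bottom), with 95% intervals as bars and names for genes within 1.1 Mb of that start. Slc1a3, Ranbp3l and Gm37310 stand above the rest at both ages, and at P31 Il7r lies at 1.52 with an adjusted p of 0.0689.

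The other glutamate transporters did not follow Slc1a3. Slc1a2, the principal glutamate transporter of astrocytes in brain, had P17 control counts of 444, 242, 609, 583, 0, 252 and 0, and P17 KO counts of 0, 80.8, 1.25, 86.7 and 50.2. The groups overlapped, because 2 controls and 1 KO library were at 0. The means were 304 ± 252 (SD, n = 7) and 43.8 ± 41.8 (SD, n = 5), a log2 difference of -1.97 (95% interval -4.31 to 0.36, limma adjusted p = 0.408). Without P17 KO library 1 the KO mean was 54.7 ± 39.1 (SD, n = 4).

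At P31 the Slc1a2 controls had 153, 0, 2.99, 0.829 and 0, and the KO libraries 54.2, 0, 137, 0 and 3.32. All but 1 control and 2 KO libraries were close to 0, and the log2 difference was 0.49 (95% interval -2.03 to 3.01, limma adjusted p = 0.910). Within controls Slc1a2 was lower at P31 than at P17 (log2 difference -2.91, 95% interval -5.25 to -0.58), which missed the threshold over all genes (limma adjusted p = 0.215) and turned to 0.49 with the rod score in the fit.

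Slc1a2 moved with rod transcripts and, less closely, with those of Mueller glia and astrocytes. Its correlation with the rod score, the mean log2 level of the rod markers, was 0.75 over 22 libraries, and 0.67 after removing group means. With the Mueller glia and astrocyte score it was 0.59, and 0.37 after removing group means. The 3 libraries with the highest rod scores, P17 controls 1, 3 and 4, had its 3 highest counts. They also had the 3 highest Mueller glia and astrocyte scores, at 7.98, 8.60 and 9.63. At P17 the rod score lay between 9.36 and 13.2 in the control libraries and 8.33 and 11.1 in the KO libraries. At P31 the ranges were 6.55 to 11.1 and 8.25 to 11.02. All 19 rod markers in the table were tested. Their median log2 difference was -2.10 at P17 and 1.82 at P31 (all genes -0.30 and -0.05). Guca1b alone was called at P17 and none at P31, where 1.52% and 2.88% of all genes tested were called. The Guca1b call was lost with either score as a covariate and with edgeR. With the rod score in the fit the P17 difference of Slc1a2 was -0.09 and the P31 difference -1.25. The correlation of Slc1a3 was -0.08 with the rod score and -0.34 with the Mueller glia and astrocyte score over 22 libraries, and 0.29 and 0.47 after removing group means.

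Slc1a7 (EAAT5), a glutamate transporter of photoreceptors and bipolar cells that was added from outside the 6 members, was spread in a similar way. Its P17 controls had 277, 181, 914, 418, 124, 284 and 0, and the P17 KO libraries 0, 326, 255, 124 and 0. Over 22 libraries its correlation was 0.65 with the rod score and 0.64 with the Mueller glia and astrocyte score. Its log2 difference was -1.53 at P17 (95% interval -3.81 to 0.76, limma adjusted p = 0.489) and -0.86 at P31 (-3.32 to 1.61, limma adjusted p = 0.815). Slc1a6 (EAAT4), the transporter known from cerebellar Purkinje cells, had at most 1 read in any library.

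**Figure D3:**
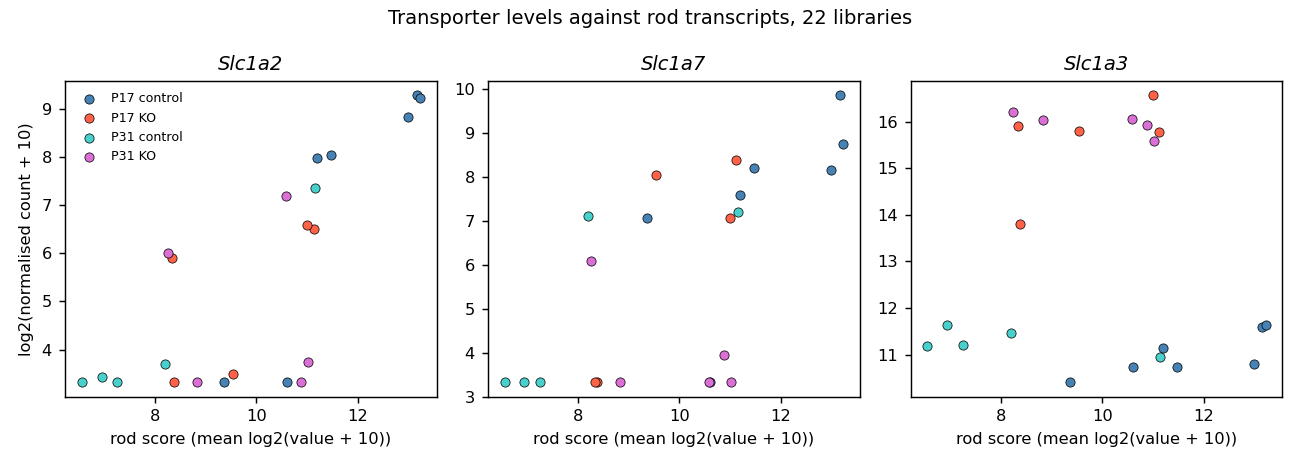
Log2(normalised count + 10) of Slc1a2, Slc1a7 and Slc1a3 (vertical axes, different ranges) against the rod score of each library (horizontal axis), with 1 point per library coloured by group. The 3 P17 controls with rod scores near 13 have the highest Slc1a2. The KO libraries, whose rod scores reach 11.1 at most, lie above all controls for Slc1a3, the difference on which that gene was chosen.

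Slc1a1, the neuronal transporter, was close to the detection limit and was not in the fit. P17 controls had counts of 19.6, 0, 28.1, 140.3, 0, 0 and 0 and the P17 KO 24.6, 27.6, 0, 0 and 0. All 5 P31 controls had 0, and the P31 KO libraries had 2.17, 22.7, 0, 0 and 256. The groups overlapped at both ages. Two-sided exact permutation tests of the mean log2 level gave p = 0.744 at P17 and p = 0.167 at P31, or 0.992 and 0.667 adjusted over the 4 tests of Slc1a1 and Slc1a6. The authors' deposited table gives a P31 log2 fold change of 8.59 with an adjusted p of 0.0753.

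Slc1a4 and Slc1a5, the neutral amino acid exchangers, were present in most libraries and were not called. Slc1a4 counts were 114 to 383 (median 215) in the 7 P17 control libraries and 2.46, 86.7, 342, 256 and 120.4 in the KO libraries, the lowest again being P17 KO library 1. The P31 control libraries had 6.41, 819, 342, 0 and 630.1, and the KO libraries had 228, 555, 271, 0 and 384. Both ages overlapped, with 1 P31 library at 0 in each genotype. The log2 difference was -1.04 at P17 (95% interval -3.32 to 1.24, limma adjusted p = 0.633) and 0.46 at P31 (-2.01 to 2.92, limma adjusted p = 0.915), and the P31 sign turned on recovered reads with edgeR or DESeq2. Without P17 KO library 1 the P17 KO mean was 201 ± 119 (SD, n = 4), against 227 ± 90.7 (SD, n = 7) in controls.

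Slc1a5 was measured above 0 in all 22 libraries. Its P17 counts were 156 to 747 (median 379.7) in 7 control libraries and 17.2, 702, 629, 564 and 388 in KO libraries, and the low library was P17 KO library 1. With TMM scaling it was still the lowest, at 33.0. The P31 control libraries had 207, 1191, 664, 701 and 455, and the KO libraries had 602, 461, 333, 207 and 246. These groups overlapped too. The log2 difference was -0.17 at P17 (95% interval -1.52 to 1.17, limma adjusted p = 0.904), where the sign turned under several alternatives including DESeq2 scaling, and -0.68 at P31 (-2.14 to 0.77, limma adjusted p = 0.739). Slc1a5 and Slc1a3 correlated at -0.01 over the 22 libraries, and at 0.66 after removing group means. P17 KO library 1 was the lowest of its group for both genes, and r without it was not computed.

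None of Slc1a2, Slc1a4, Slc1a5 and Slc1a7 was called between genotypes in any of 34 alternatives at P17 or 35 at P31, where their lowest adjusted p were 0.246 and 0.277. The 95% intervals of Slc1a2, Slc1a4 and Slc1a7 at both ages, and of Slc1a5 at P31, include 4-fold changes. A difference of that size was therefore not excluded for these genes. The genotype difference at P31 minus that at P17 was called for 6 of 12868 genes (0.0466%). Slc1a2, Slc1a4, Slc1a5 and Slc1a7 were not among them.

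**Figure D4:**
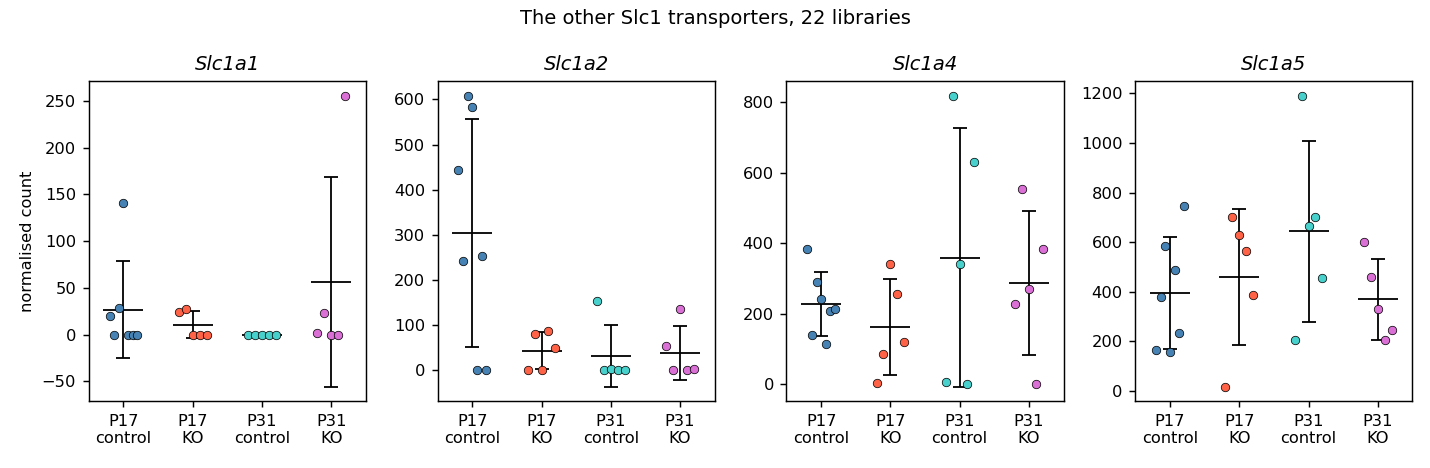
Normalised counts of Slc1a1, Slc1a2, Slc1a4 and Slc1a5 (linear vertical axes with different ranges) in each library of the 4 groups, with group means as lines and SD as bars (a bar may run below 0). Libraries of control and KO overlap in every panel, and the 5 P31 controls are at 0 for Slc1a1.

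Per exonic kilobase, which allows levels to be compared between genes, Slc1a3 was the most abundant family member in every group. In P17 controls it had 251 ± 84.6 normalised counts per kb (SD, n = 7), ahead of Slc1a5 (94.4 ± 54.1), Slc1a7 (93.4 ± 88.1), Slc1a4 (57.9 ± 23.1), Slc1a2 (23.2 ± 19.2) and Slc1a1 (3.25 ± 6.22). In the P31 KO the same level was 7556 ± 1127 (SD, n = 5) for Slc1a3, 88.6 ± 38.9 for Slc1a5, 73.2 ± 52.1 for Slc1a4, 48.1 ± 27.5 for Ranbp3l, 6.79 ± 13.6 for Slc1a1, 3.74 ± 7.50 for Slc1a7 and 2.96 ± 4.52 for Slc1a2. The ranges of mean ± SD overlapped among Slc1a5, Slc1a4 and Ranbp3l, and among Slc1a1, Slc1a7 and Slc1a2. The Slc1a3 level in P31 controls was 296 ± 54.6 (SD, n = 5).

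Since Slc1a3 is a Mueller glia gene, its difference is set beside the other markers of those cells. Of 21 markers of Mueller glia and astrocytes, 16 were tested. At P17, where 1.52% of all genes tested were called, Kcnj10 rose and Clu and Cspg5 fell. Of the 16, 2 were above 0 and 14 below, with a median log2 difference of -1.32 (all genes -0.30). At P31, where 2.88% of all genes tested were called, Kcnj10 rose. At that age 7 were above 0 and 8 below, with a median of -0.08 (all genes -0.05). The summed level of the list at P17 was 15140 to 34398 in control and 16910 to 29054 in KO libraries. At P31 it was 10322 to 12789 and 11618 to 15673. Without Glul (glutamine synthetase) the sums were 2950 to 19961 and 978 to 4909 at P17, and 1803 to 4931 and 2966 to 6182 at P31. The part of Mueller glia in the Slc1a3 difference was not tested beyond the covariate values above.

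Kcnj10 encodes the inward rectifier Kir4.1, the potassium channel of Mueller glia. Its mean at P17 was 102 ± 56.7 (SD, n = 7) for control libraries and 660.2 ± 436 (SD, n = 5) for KO libraries, with overlap (log2 difference 2.45 ± 0.57 SE, limma adjusted p = 0.0250). That call was lost in 6 of 22 fits that left out 1 library, namely those without control 2 or 7, or KO library 2, 3, 4 or 5, of P17, with limma adjusted p up to 0.0947. The call was also lost in 4 of 12 other alternatives, with limma adjusted p up to 0.122. These were no filter beyond a value above 0, only the groups compared, the rod score as covariate and a replicate block. At P31 counts of 33.9 to 299.7 in controls and 519 to 1684 in the KO did not overlap (3.14 ± 0.62 SE, limma adjusted p = 0.00382).

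Beside Kcnj10, no other tested marker was called at P31. Glul had log2 differences of 0.50 at P17 and 0.35 at P31 (limma adjusted p = 0.259 and 0.519), and Car14, a carbonic anhydrase, of -1.72 and 2.03 (limma adjusted p = 0.382 and 0.380). Gfap, the filament protein of reactive glia, was not in the fit and had P31 means of 0.995 ± 2.23 in control and 31.8 ± 34.9 in KO libraries (n = 5 each). Rlbp1, the retinaldehyde binding protein, had means of 1897 ± 1957 and 338 ± 279 at P17 and 325 ± 161 and 183 ± 77.1 at P31, in controls and KO (n = 7, 5, 5 and 5), with limma adjusted p of 0.0754 and 0.733. Aqp4, the water channel of glial endfeet, was at 0 in 4 of 5 P31 KO libraries, and Sox9 and Sox2 were at 0 in all 5. Dkk3 was at most 0.903 in the P31 KO. Of the 5 P31 controls, all were at 0 for Sox2, 4 for Sox9 and 2 for Aqp4. In the same 5 KO libraries Glul lay between 7309 and 10947 and Rlbp1 between 57.1 and 256. Vim was between 229 and 544, Clu between 48.8 and 597.5, and Slc1a3 between 49515 and 75502. Clu (clusterin) fell from 1279.5 ± 1631 to 100.1 ± 139 at P17 (log2 difference -3.87, limma adjusted p = 0.0119), and Cspg5 from 229 ± 213 to 7.18 ± 10.97 (-3.28, limma adjusted p = 0.0262). The Clu call was lost without P17 KO library 5 and in 3 of 12 other alternatives. These were the rod score and the Mueller glia and astrocyte score as covariates, and edgeR. That of Cspg5 was lost without any 1 of control 1, 3 or 4, or KO library 1, 3 or 5, of P17. It was also lost in 7 of 11 other alternatives, among them both covariates, edgeR and DESeq2.

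**Figure D5:**
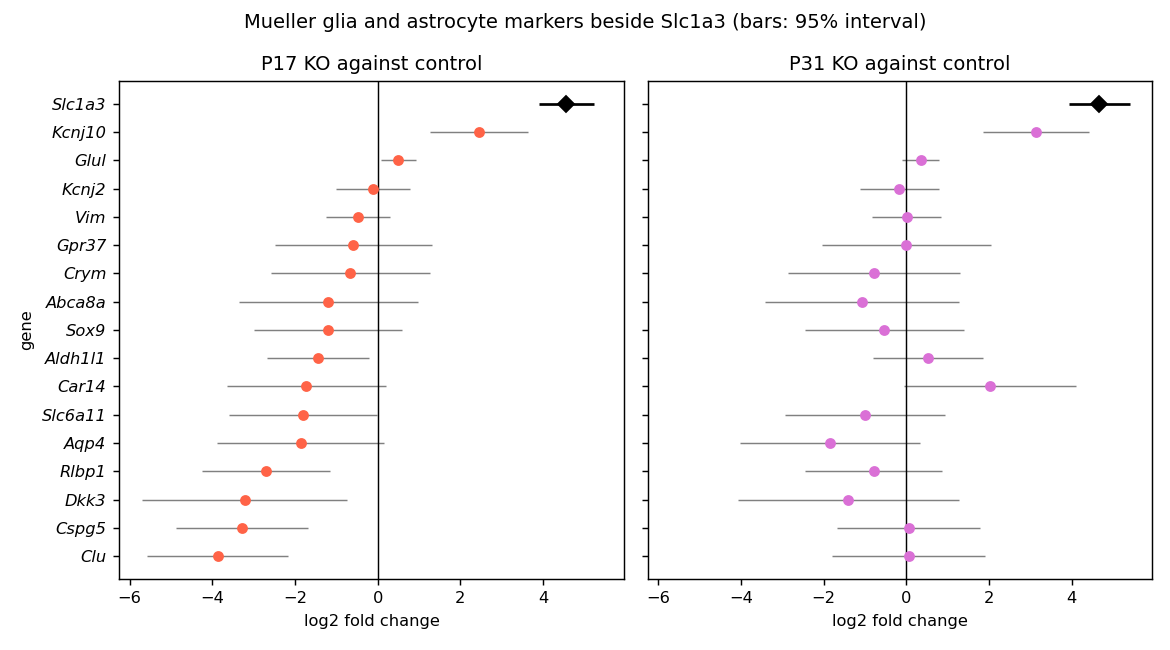
Log2 difference between KO and control (horizontal axis, shared) of the 16 tested Mueller glia and astrocyte markers (circles) and of Slc1a3 (black diamond), one gene per row, at P17 (left) and P31 (right), with 95% intervals as bars. Kcnj10 is the marker that lies nearest to Slc1a3 at both ages, at 2.45 and 3.14, and of the 16 markers 14 lie below 0 at P17 and 8 at P31.

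Genes that handle glutamate inside and around the cell were then followed. In lists this short a count of 0 or 1 is near the share of all genes called, 1.52% at P17 and 2.88% at P31, and nothing particular to a list is read from it. None of 17 tested genes of glutamate and glutamine metabolism passed at either age (median log2 difference -0.44 at P17 and 0.21 at P31, against -0.30 and -0.05 over all genes). Gpt2, a mitochondrial alanine transaminase, had P31 means of 698 ± 426 in control and 252 ± 390.5 in KO libraries (n = 5 each, log2 difference -3.45, limma adjusted p = 0.0794). Phgdh, the first enzyme of serine synthesis, had 1925 ± 244 and 3738 ± 687 at P31 (n = 5 each, limma adjusted p = 0.135). None of 10 genes of cystine uptake and glutathione synthesis passed (medians -0.43 and 0.02), among them Gclc, which makes the glutathione precursor. None of 18 other amino acid transporters passed (medians -0.61 and -0.13). The taurine transporter Slc6a6 had 8988 ± 1832 in P17 control libraries (n = 7) and 5257 ± 2649 in P17 KO libraries (n = 5) (log2 difference -0.98, limma adjusted p = 0.127). Of the glutamate receptors, 2 were tested, Grm3 and Grin2d, and neither passed. The vesicular transporter Slc17a7, which loads glutamate into photoreceptor synaptic vesicles, had 4491 ± 3819.9 (n = 7) and 685 ± 686 (n = 5) at P17, in control and KO libraries (log2 difference -3.12, limma adjusted p = 0.130).

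Among 6 tested subunits and regulators of the sodium pump, which maintains the gradient that drives Slc1 transport, 1 fell at P31, where 2.88% of all genes were called. Fxyd5, a single-span regulator of the pump, had a P31 mean of 2181 ± 371 (SD, n = 5) in control libraries and 563 ± 249.9 (SD, n = 5) in KO libraries, a log2 difference of -2.01 (limma adjusted p = 0.000778). The call held in all 22 fits without 1 library. At P17 its log2 difference was -0.70 (limma adjusted p = 0.315), and edgeR on recovered reads gave an adjusted p of 0.0568 at P31. Atp1b3, a beta subunit, had means of 11607 ± 1218 and 17922 ± 1174 at P31 (log2 difference 0.63, limma adjusted p = 0.100). None of 6 genes for proteins known to bind Slc1 transporters passed. Ezr, the actin linker ezrin, had 548 ± 309 and 1909 ± 624 at P31 (log2 difference 2.03, limma adjusted p = 0.155).

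Around Ranbp3l, none of 8 genes of the Ran cycle and nuclear export was called (medians -0.15 at P17 and 0.43 at P31). Ranbp3, its relative, had 3068 ± 373 and 2265 ± 1392 at P17 and 2481 ± 546 and 2259 ± 627 at P31, in controls and KO, with limma adjusted p of 0.342 and 0.923. None of 13 tested BMP receptors, Smads and Id genes was called between genotypes (medians -0.50 and 0.01). Id1, a BMP target, had P31 means of 10.8 ± 24.1 in control and 68.8 ± 30.03 in KO libraries (n = 5 each, log2 difference 2.32, limma adjusted p = 0.0940). Id3 fell with age in controls, from 136 ± 143 (SD, n = 7) to 0 in all 5 P31 libraries (limma adjusted p = 0.0177). That call was lost in 4 of 11 other alternatives. These were the rod score and the Mueller glia and astrocyte score as covariates, a replicate block and edgeR.

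Leaving out symbols of the Gm, Rik and -ps kinds, the genes most like Slc1a3 over the 22 libraries, by Pearson correlation of log2 levels, were Ugt1a8 (r = 0.99), Ranbp3l (0.97), Eno1b (0.95), Ifi202b (0.95) and Ctse (0.94). With those symbols kept, Ranbp3l stood at rank 7 for Slc1a3 and Slc1a3 at rank 4 for Ranbp3l. By the first rule, the genes most like Ranbp3l were Ugt1a8 (0.98), Slc1a3 (0.97), Ifi202b (0.94), Treml4 (0.94) and Eno1b (0.94). Ugt1a8 encodes a glucuronidating enzyme and had mean counts of 0.142 and 147 at P17 and 0 and 156 at P31, in controls and KO. Ctse, the aspartic protease cathepsin E, had means of 505 and 7580 at P17 and 356 and 4407 at P31. Counts of Ugt1a8, which shares exons with its gene cluster, and of Eno1b, a near copy of Eno1, are uncertain. The other Slc1 members had r with Slc1a3 of -0.15 for Slc1a2, -0.02 for Slc1a4 and -0.01 for Slc1a5. These values hold the genotype difference that chose Slc1a3. After removing group means the r with Slc1a3 was 0.81 for Ugt1a8, 0.67 for Ctse, 0.60 for Eno1b and 0.32 for Ifi202b, and 0.66 for Slc1a5, 0.45 for Slc1a2 and 0.35 for Slc1a4. All of these r include P17 KO library 1, and values without it were not computed.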

How the data were processed

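RNA sequencing of 22 libraries of sorted retinal microglia was analysed from 1 deposited table. Tools listed in the submitters' processing notes, with no roles stated, are STAR 2.7.5b, featureCounts, DESeq2 1.22.2, R 3.5.3 and FastQC 0.72, and the build is mm10. The sources used here give neither annotation nor strand setting. The deposited library columns hold a signal, namely reads per gene scaled by the authors with 1 factor for each library: 100% of 349420 values above 0 are whole multiples of 1 read (relative tolerance 1e-06). The table also holds the authors' log2 fold changes and adjusted p-values, quoted where named.

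limma 3.58.1 (R 4.3.3, mean-variance trend, robust) was fitted to log2(normalised count + 10) of 12868 genes, each with at least 30 in at least 5 libraries, with 4 group means over all 22 libraries. P-values were Benjamini-Hochberg adjusted over all genes tested, with calls under 0.05. The log2 scale with a pseudocount of 10 understates changes of low genes. The members, gene lists and tests were chosen with earlier results of these data known. Named genes are the members, Slc1a6, Slc1a7, tested genes starting within 1 Mb of Slc1a3 or Ranbp3l, up to 4 genes of smallest p per list over both genotype contrasts, the 5 most correlated with Slc1a3 or Ranbp3l (leaving out Gm, Rik and -ps symbols), cell type markers and Vldlr. Ankrd33b, Rims2 and Id3's age change were named after their values were seen. Scores are mean log2 levels of a marker list. Positions are GENCODE M21 on mm10, matched for 99.8% of genes, and promoters are RefSeq on GRCm38.p6.

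Alternatives were edgeR 4.0.16 and DESeq2 1.42.0 on the recovered reads (edgeR called 362 genes at P17 and 222 at P31), 2 rescalings, other pseudocounts and filters, only the groups compared, rod and Mueller glia scores as covariates, a replicate block and each library left out. An analysis of the P31 libraries that had Xist but no Y-linked reads was added after seeing the data. The fit was tested on simulated data.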

Additional observations from a re-analysis of the deposited data

Results flagged for a closer look

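Of 21 gene and group combinations, 3 had a library whose gap to its nearest neighbour exceeded the 95% critical value for its group size. That value flags about 1 in 20 where levels are normally distributed. Slc1a1 and Slc1a2 had many zeros, so no excess is read from the 3. Slc1a1 in P17 control 4 was 140.3 normalised counts, where the next highest control had 28.1. Slc1a1 in P31 KO library 5 was 255.6, where the next highest had 22.7. Slc1a2 in P31 control 1 was 153, where the next highest had 2.99, and that library had the highest rod score of its group, at 11.1. The part of other cell types in these values was not tested.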

How the results depend on the processing

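The Slc1a3 difference between genotypes ranged over all alternatives from 4.32 to 5.01 at P17 and from 4.46 to 4.77 at P31 on the log2 scale, and the lowest and highest P17 values came from leaving out 1 library. The fitted Ranbp3l difference ranged from 1.84 to 10.7 at P17 and 2.49 to 11.4 at P31, because all controls are at 0 and the value depends on the prior count.

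Counts of genes called moved more. At P17 (195) they were 575 with DESeq2, 362 with edgeR, 88 with the glia score, 113 with the rod score and 120 with the replicate block. At P31 (371) they were 649 with DESeq2, 222 with edgeR, 247 with the rod score and 183 in libraries that had Xist but no Y-linked reads. For age in controls (188) they were 580 with DESeq2, 74 with edgeR, 3 with either score, 65 with no filter, 1017 with only the groups compared and 40 with the replicate block. For age in the KO (114) they were 769 with DESeq2, 174 with edgeR, 189 and 172 after DESeq2 and TMM rescaling, 8 with only the groups compared and 54 with the replicate block. For the difference between KO effects (6) they were 183 with DESeq2, 3 with edgeR, 3 with a filter at 100, 3 with the glia score, 0 with the rod score (unadjusted p under 0.05 for 355 genes) and 1 with the replicate block. Leaving out 1 library gave 135 to 216, 311 to 864, 54 to 877, 72 to 535 and 3 to 7 calls in the same order, and the first 4 had their highest count without P17 KO library 1. Replicate numbers did not pair the samples, with correlations of same-numbered libraries between -0.14 and 0.12. The cause of these moves was not tested.

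Some effects that missed the threshold changed sign. Slc1a2 at P31 was -1.25 with the rod score and -0.13 without P31 KO library 3, its age change in controls 0.49 and its difference between ages -1.16 with the rod score. Slc1a3 with age in the KO was -0.052 without P17 KO library 1, and 0.64 at most without another library. Slc1a4 at P31 was -0.31 with edgeR and -0.31 with DESeq2, and -0.28 and -0.46 without P31 control 1 or 4. Its age change was 0.18 with the glia score, 0.70 with edgeR, 0.72 with DESeq2 and 0.080 without P31 control 4 in controls, and -0.11 without P17 KO library 1 in the KO. Slc1a5 at P17 was 0.0069 after DESeq2 rescaling, 0.016 with a pseudocount of 64, 0.16 with the glia score, 0.26 with edgeR, 0.24 with DESeq2, 0.014 without P17 control 7 and 0.70 without P17 KO library 1. With age in the KO it was -0.0141 with a pseudocount of 64, -0.30 with edgeR, -0.26 with DESeq2, and -0.69 and -0.0068 without P17 KO library 1 or P31 KO library 1. Its difference between ages was 0.0068 with the rod score. Over fits without 1 library, Slc1a2 at P31 reached 1.27, Slc1a4 1.48 at P31, -1.51 with age in controls and 1.69 with age in the KO, and Slc1a5 -0.47 at P17. Slc1a1, Slc1a6 and Slc1a2 had 0 reads in 14, 19 and 7 of 22 libraries, where depth sets the limit at 3 reads per library.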
